A study of Mus musculus with 58 samples.

Results

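Newly made RNA after 24 h without DPY30 was compared with that after 8 h in mouse embryonic stem (mES) cells. The members are the 6 SLAM-seq libraries of DPY30–mAID cells treated for 8 h or 24 h (3 libraries each) of the 58 libraries in the series, and 6317 of 20177 genes had enough labelled reads to be tested. The cells are E14 mES cells of the 129/Ola background, grown on gelatin with serum and LIF, in which both copies of Dpy30 carry the auxin-inducible degron, and they were treated with auxin for 0, 2, 8 or 24 h. Comparison lines were RBBP5–FKBP cells, treated with dTAG-13 for the same times, and DPY30–mAID cells in which Kdm5a and Kdm5b were also knocked out (dKO, genotype label Kdm5dKO), treated with auxin. The DPY30–mAID line also carries an OsTIR1 transgene at every time point, the lines were derived from selected clones, and the dKO series has 2 libraries per time point. The SLAM-seq cells were given 100 µM 4-thiouridine (4SU) for 60 min before RNA isolation, so the untreated cells also carry the degron and the label. As a background, 2 Quant-seq libraries of DPY30–mAID cells with the agent label DMSO_RA at 0 h were used, a 3′-end assay without 4SU.

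DPY30 and RBBP5 are core subunits shared by the SET1 and MLL complexes, which methylate lysine 4 of histone H3 (H3K4), and without them trimethylation at promoters is not maintained. KDM5A and KDM5B are demethylases that remove this mark. In SLAM-seq, 4SU taken up during the pulse is read as a T>C mismatch, so a read with a T>C mismatch (T>C read) marks RNA made in that hour, and all reads of a gene measure its RNA pool. Immediate early genes respond to signals within minutes to hours, and metallothionein genes respond to metals.

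T>C reads were scaled in 2 ways. Scaled to total reads, each library is set to its number of all reads, so a shift common to all genes stays in the values. Scaled to T>C reads, each library is set to its own T>C reads, so only changes relative to the typical labelled gene remain. A further scale, added after the data were seen, sets the T>C reads of a gene against its own total reads in the same library, so that only changes in its labelled share remain. A shift of that share common to all genes stays in these values. Levels are given as T>C CPM, the T>C reads of a gene as CPM of all counted reads, and differences as log2 of 24 h over 8 h. A gene was called at an adjusted p below 0.05 (edgeR's quasi-likelihood test with Benjamini-Hochberg adjustment over all tested genes) and a log2 difference above 1 or below −1.

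The 6 libraries held between 2062069 and 2492794 counted reads. All 9 ES cell markers were detected, with a summed level of 7951 to 8492 CPM of total reads at 8 h and 8353 to 8877 CPM at 24 h, with Dppa5a the highest. Among them, all 24 h libraries lay under all 8 h libraries in Klf4 (164 to 231 against 362 to 496 CPM), Utf1 and Esrrb, and above them in Nanog, Sox2, Tdgf1 and Zfp42. Fibroblast markers summed to 882 to 931 CPM at 8 h and 503 to 589 CPM at 24 h, nearly all from Fn1 and Vim, each of them lower in every 24 h than in every 8 h library, with Col1a1, Col1a2, Col3a1, Dcn and Lum at 0. Primitive endoderm markers summed to 790.0 to 822 and 564 to 605 CPM, with Sparc the highest member, and with Sox17 and Ttr at 0. Trophectoderm markers summed to 103 to 142 and 79.5 to 103 CPM with Cdx2 and Elf5 at 0, and neural markers to 90.03 to 123 and 57.4 to 70.2 CPM with Neurog2, Dcx and Fabp7 at 0. Dpy30 itself had 22.2, 22.5 and 13.5 T>C CPM at 8 h and 48.8, 28.8 and 20.9 T>C CPM at 24 h, which did not pass the test (log2 difference 0.76 scaled to total reads, edgeR adjusted p = 0.148). The degron acts on the protein, so RNA does not check its loss. The part of the lower fibroblast, primitive endoderm and neural marker sums in the results was not tested, and in bulk libraries fewer cells of a type and less RNA per cell cannot be told apart.

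Labelling was the first difference between the times. T>C reads made up 13.0%, 9.82% and 5.51% of counted reads in the 3 libraries at 8 h, against 15.6%, 15.8% and 14.5% at 24 h. The 8 h libraries were widely spread and all lay under the 24 h libraries, which in turn overlapped the 15.3% to 16.1% at 0 h. The means were 9.46% ± 3.78 (SD, n = 3) and 15.3% ± 0.664 (SD, n = 3), a difference of 5.85 percentage points (exact permutation p = 0.1, two-sided, and 3 against 3 can give none smaller). A T>C read carried on average 1.24, 1.16 and 1.06 conversions at 8 h and 1.32, 1.32 and 1.31 at 24 h, above the 1.24 to 1.25 at 0 h. In the 2 Quant-seq libraries without 4SU, 0.338% and 0.303% of reads were T>C reads, but their reads covered 11.5 to 11.6 T each against 18.4 to 18.9 in the 8 h and 24 h libraries. Per 1000 covered T, those libraries had 0.279 and 0.252 conversions, against 3.17 to 8.55 at 8 h and 10.2 to 11.3 at 24 h. Uptake of the label, its chemical conversion and RNA synthesis cannot be told apart from these shares. Libraries 1 and 3 at 8 h stood farthest apart, so the count of genes is also given below without each of them.

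**Figure D1:**
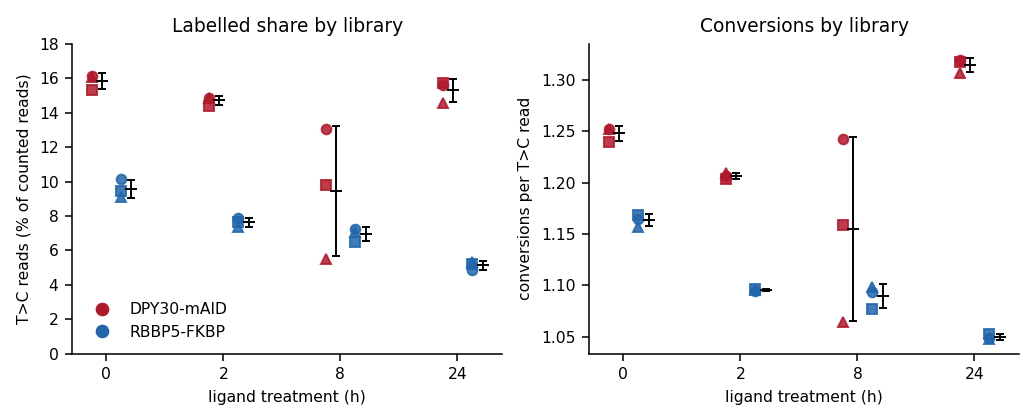
T>C reads as a percent of counted reads (left) and mean conversions per T>C read (right, axis not starting at 0) against hours of auxin (DPY30–mAID, red) or dTAG-13 (RBBP5–FKBP, blue). Each point is a library with circle, square and triangle for replicates 1, 2 and 3, and bars are the mean ± SD of 3. The DPY30–mAID libraries fall to between 5.51% and 13.0% at 8 h and lie at 14.5% to 15.8% at 24 h, while the RBBP5–FKBP libraries are lowest at 24 h.

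Scaled to total reads, 1017 genes were higher at 24 h than at 8 h (16.1% of those tested) and 59 were lower (0.934%), and the median of all genes was 0.56. Scaled to T>C reads, 361 genes were higher (5.71%) and 304 lower (4.81%), around a median of 0.05. Without TMM factors (normalisation factors that centre the typical gene), the T>C scaling had a median of −0.21, with 167 genes higher and 538 lower, so directions on this scale hold relative to the median. DESeq2 gave 312 higher and 397 lower on this scale, and leaving out genes with over 20% multimapping reads, which 94 of the 361 have, gave 257 and 277. A fit of the 8 h and 24 h libraries alone, in which 5570 genes were tested, gave 520 higher and 15 lower scaled to total reads. The 361 genes were all among the 1017, and the 59 all among the 304. No gene was called in opposite directions, so 361 genes higher and 59 lower stand under both scalings, 656 genes were higher only when scaled to total reads, and 245 lower only when scaled to T>C reads. Leaving out replicate 3 at 8 h, the least labelled library, moved the counts scaled to total reads to 619 higher and 153 lower, and leaving out replicate 1 at 8 h moved them to 1719 and 39. With its own total reads as the scale of each gene, 555 genes were higher and 14 lower, among them 336 of the 1017 and 7 of the 59. The median of all genes on that scale was 0.60, so values there hold relative to this shift. Of 60 single genes followed on every scale and called higher scaled to total reads, 27 were also called on that scale. Of 13 called lower, 1 was (Arnt), while 6 changed sign, all 6 to values under that median. Under both scalings and without each of the 6 libraries in turn, 161 genes remained higher and 11 lower.

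**Figure D2:**
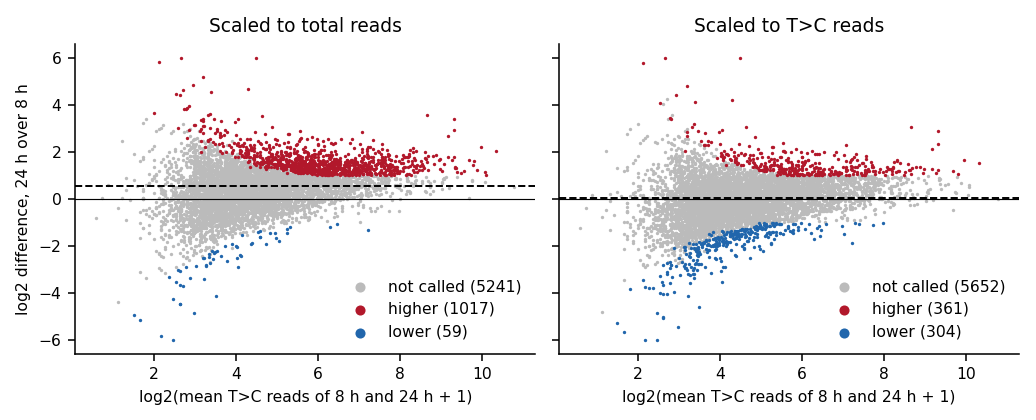
Each of the 6317 tested genes by its mean T>C reads (x axis, log2) and its log2 difference of 24 h over 8 h (y axis), with the library sizes set by total reads (left) or by T>C reads (right). Red and blue points were called higher or lower, the dashed line is the median of all genes, and values beyond 6 are drawn at 6. The median lies at 0.56 on the left and at 0.05 on the right, so the 1017 higher genes on the left become 361 and the 59 lower genes become 304.

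The 361 genes had a median span of 13496 bases and the 59 one of 34611 bases, against 24711 bases in all tested genes. The median GC content of the last 300 bases was 41.3% in the 361 genes, 48.3% in the 59 and 43.3% in all tested genes. Within the 361 genes the median labelled share rose from 10.9% of a gene's reads at 8 h to 27.3% at 24 h, and within the 59 it was 17.1% and 6.48%, against 12.9% and 19.6% in all tested genes. With GC content as an offset, 384 genes were higher and 286 lower scaled to T>C reads. The part of GC content, gene span and labelling in these calls was not tested further.

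Genes of SR proteins, which bind exonic enhancers and promote splicing, and of their relatives TRA2A and TRA2B were among the strongest increases. Many of these genes control their own RNA through poison exons. Of the 12 members tested, 9 were higher at 24 h scaled to total reads and 7 scaled to T>C reads, where 16.1% and 5.71% of all tested genes were higher. None was lower, and the median difference scaled to T>C reads was 1.21 against 0.05 over all genes. This family was listed after its values were seen. Srsf7 (chr17:80200080-80207307, GRCm38) had 43.2, 24.4 and 14.4 T>C CPM at 8 h and 297, 353 and 319.7 T>C CPM at 24 h, against 114 ± 28.9 (SD, n = 3) at 0 h. Every 24 h library lay above every 8 h and every 0 h library. The log2 difference was 3.56 scaled to total reads (SE 0.34, edgeR adjusted p = 7.88e-11) and 3.05 scaled to T>C reads (SE 0.19, edgeR adjusted p = 9.37e-22). All reads of Srsf7 changed from 167 to 934 CPM, a log2 difference of 2.48 (edgeR adjusted p = 7.11e-25).

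Srsf3 (chr17:29032628-29043373), another member, had 66.2, 53.9 and 22.7 T>C CPM at 8 h and 450.0, 535 and 528 T>C CPM at 24 h, and its 0 h level of 172 ± 34.0 (SD, n = 3) lay between them. Its log2 difference was 3.40 scaled to total reads (SE 0.32, edgeR adjusted p = 5.46e-11) and 2.90 scaled to T>C reads (SE 0.16, edgeR adjusted p = 1.80e-25). Labelled reads were 9.17% of Srsf3 reads at 8 h and 35.6% at 24 h, and 13.4% at 0 h. Tra2a (chr6:49243924-49264033) had 16.6, 17.3 and 9.16 T>C CPM at 8 h and 80.4, 90.3 and 79.8 T>C CPM at 24 h, again with no overlap, and a log2 difference of 2.54 scaled to total reads (SE 0.35, edgeR adjusted p = 2.03e-06) and 1.99 scaled to T>C reads (SE 0.27, edgeR adjusted p = 2.27e-08). Tra2b, Srsf2, Srsf5 and Srsf10 were also higher under both scalings, by 1.65, 1.35, 1.55 and 1.07 on the log2 scale set by T>C reads, but 32.6% to 50.3% of the reads of these genes were multimapping. With own total reads as the scale, Tra2a (0.83) and Srsf5 (0.69) were not called, and Srsf7, Srsf3, Tra2b, Srsf2 and Srsf10 were. The Srsf10 call scaled to T>C reads was lost without replicate 3 at 8 h (0.88) or replicate 2 at 24 h (0.91). Srsf1 and Srsf6 passed only when scaled to total reads (1.30 and 1.31), and without replicate 3 at 8 h they stood at 1.00 and 0.98 and were no longer called, Srsf6 also without replicate 2 at 8 h (1.09). Srsf4, Srsf9 and Srsf11 were not called under either scaling (0.75, 0.33 and 0.51 scaled to total reads). Of the 12 members, 9 had been low at 8 h against 0 h and 8 of these regained, and 5 stood above 0 h at 24 h scaled to T>C reads, where 14.5%, 6.93% and 4.05% of all tested genes did.

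The metallothioneins Mt1 and Mt2 buffer zinc, and Slc30a1 encodes the zinc exporter ZnT1. The transcription factor MTF1 switches these genes on by binding metal response elements near their start sites, which is why these promoter windows are shown. The sequences are RefSeq promoters of GRCm38.p6, 5′ to 3′ on the strand of the match, with a match to the core TGCACNC or TGCGCNC in capitals. Only some of the matches of each gene are shown, and chr8.0 and chr1.0 stand for chr8 and chr1.
Mt1, chr8.0:94179057-94179081, plus strand: gtcccgctgTGCACACtggcgctcc
Mt1, chr8.0:94179082-94179106, plus strand: agggagctcTGCACTCcgcccgaaa
Mt2, chr8.0:94172559-94172583, minus strand: gacagagccTGCACACgccctcccc
Slc30a1, chr1.0:191906729-191906753, minus strand: actttgcttTGCACTCggaaccccc

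Searched on both strands from 250 bases before to 50 after the start site, the core was found 3 times at Mt1, 4 times at Mt2 and 2 times at Slc30a1, 1 time each at Mt3 and Mt4, which had too few T>C reads to be tested, and 0 times at Mtf1. Of 32851 promoters of that length, 25.7% held at least 1 match and 1.97% at least 3. A match is a description of the letters and not a measured binding site.

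Mt1 (chr8:94179082-94180327), Mt2 (chr8:94172664-94173568) and Slc30a1 (chr1:191906767-191913247) were all higher at 24 h under both scalings, and Mtf1, the fourth tested gene of this set, was not called. This set too was listed after its values were seen. Mt1 had 78.7, 67.5 and 48.4 T>C CPM at 8 h and 459, 459 and 549.5 T>C CPM at 24 h, with 161 ± 27.5 (SD, n = 3) at 0 h. The libraries of these 3 times did not overlap. The log2 difference was 2.91 scaled to total reads (SE 0.29, edgeR adjusted p = 1.42e-10) and 2.34 scaled to T>C reads (SE 0.15, edgeR adjusted p = 2.70e-21). Mt2 had 84.8, 68.9 and 47.6 T>C CPM at 8 h and 470.4, 437 and 379.8 T>C CPM at 24 h, with 223 ± 22.2 (SD, n = 3) at 0 h, and a log2 difference of 2.68 scaled to total reads (SE 0.28, edgeR adjusted p = 1.36e-09) and 2.11 scaled to T>C reads (SE 0.15, edgeR adjusted p = 4.15e-20). The labelled share of both genes moved from under 5% to over 20%, 4.71% to 22.8% in Mt1 and 4.75% to 22.1% in Mt2. Slc30a1 had 6.06, 14.5 and 3.49 T>C CPM at 8 h and 39.6, 65.5 and 36.4 T>C CPM at 24 h, so its 24 h libraries lay above its 8 h libraries, and its log2 difference was 2.56 scaled to total reads (SE 0.44, edgeR adjusted p = 4.16e-05) and 2.01 scaled to T>C reads (SE 0.36, edgeR adjusted p = 1.94e-05). Set against own total reads, Mt1 and Mt2 were still called and Slc30a1 was not (0.71). Mtf1 itself had 7.27, 15.9 and 5.67 and 15.2, 14.9 and 9.61 T>C CPM, and these libraries overlapped (log2 difference 0.46 scaled to total reads, edgeR adjusted p = 0.563).

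Immediate early genes, which are switched on by growth factor signalling without new protein, had more members called higher than lower. Of 21 tested, 9 were higher and 1 lower scaled to total reads, where 16.1% and 0.934% of all tested genes were, and 5 and 1 scaled to T>C reads, where 5.71% and 4.81% were. The other members did not pass. The median scaled to T>C reads was 0.82, against 0.05 over all genes. Egr1, a zinc-finger factor, had 0 T>C reads in each of the 3 libraries at 8 h, 52, 40 and 37 reads at 24 h, and 9, 7 and 0 at 0 h. Against a floor of 3 reads over the 8 h group, Egr1 was at least 43.0-fold higher scaled to total reads and at least 30.0-fold higher scaled to T>C reads (edgeR adjusted p = 6.90e-06 and 7.52e-07). Egr1 entered the tests only through its 24 h reads, which favours a call. All reads of Egr1 stood at 5.95 CPM at 8 h and 46.9 CPM at 24 h. Dusp6, a phosphatase that curbs ERK signalling, had 111, 54.8 and 35.8 T>C CPM at 8 h and 292, 287 and 224 T>C CPM at 24 h and a log2 difference of 1.99 scaled to total reads (SE 0.32, edgeR adjusted p = 2.05e-05) and 1.49 scaled to T>C reads (SE 0.17, edgeR adjusted p = 4.74e-10). Spry4, a feedback inhibitor of the same pathway, had a log2 difference of 1.16 scaled to T>C reads, and Ier2 one of 1.24. Klf6 was higher by 1.50 scaled to total reads and was not called scaled to T>C reads (1.00). Against their own total reads, Dusp6, Spry4, Ier2 and Klf6 were not called (1.00, 0.81, 1.06 and 0.53), and Egr1 was. Ier3 went the other way, with 18.2, 18.3 and 8.73 T>C CPM at 8 h and 4.80, 3.47 and 6.27 T>C CPM at 24 h, and it was the 1 gene of 10 higher at 8 h than at 0 h (scaled to total reads) that was lower again at 24 h. The call of Ier3 scaled to total reads (edgeR adjusted p = 0.0441) was lost without each of 5 of the 6 libraries, and set against its own total reads the difference was 0.20.

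Genes of the actin cytoskeleton and targets of SRF and YAP, which follow actin dynamics and cell contact, had 7 of 21 tested members higher scaled to total reads and 6 scaled to T>C reads, none lower, with a median of 0.24 scaled to T>C reads. Over all tested genes 16.1% and 5.71% were higher. Ccn2 had 11.3, 4.68 and 1.75 T>C CPM at 8 h and 45.2, 29.3 and 25.1 T>C CPM at 24 h, which do not overlap, and a log2 difference of 2.46 scaled to total reads (SE 0.51, edgeR adjusted p = 5.93e-04) and 2.02 scaled to T>C reads (SE 0.43, edgeR adjusted p = 3.99e-04). Actb had 300.4, 233 and 120.0 T>C CPM at 8 h and 950.3, 951 and 798 T>C CPM at 24 h, a log2 difference of 2.05 scaled to total reads (SE 0.27, edgeR adjusted p = 7.39e-07) and 1.53 scaled to T>C reads (SE 0.11, edgeR adjusted p = 4.15e-20). All reads of Actb nevertheless stood at 6375 CPM at 8 h and 4597 CPM at 24 h (log2 difference −0.47), so its labelled share was 3.56% and 19.6%. Cnn3, Amotl2 and Ajuba were higher by 1.65, 1.72 and 1.14 scaled to T>C reads, the last not without replicate 3 at 8 h (0.93) or replicate 1 at 24 h (0.90). On the scale of own total reads, Actb, Cnn3 and Actg1 were called and Ccn2 (0.35), Amotl2 (0.77) and Ajuba (0.90) were not. Actg1 was higher by 1.67, but nearly all its reads mapped to more than 1 place.

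Targets of p53, the factor activated by DNA damage and nucleolar stress, had 9 of 21 tested members higher scaled to total reads and 6 scaled to T>C reads, none lower, and a median of 0.84 scaled to T>C reads. The shares of all tested genes were 16.1% and 5.71%. Ccng1 had 29.1, 22.02 and 5.24 T>C CPM at 8 h and 70.4, 96.7 and 84.8 T>C CPM at 24 h, against 32.7 ± 5.83 (SD, n = 3) at 0 h, and a log2 difference of 2.15 scaled to total reads (SE 0.38, edgeR adjusted p = 6.92e-05) and 1.70 scaled to T>C reads (SE 0.27, edgeR adjusted p = 1.58e-06). Trp53inp1 had 50.5, 42.2 and 24.4 T>C CPM at 8 h and 135, 132 and 165 T>C CPM at 24 h, with no overlap, and a log2 difference of 1.35 scaled to T>C reads. Mdm2, the ligase that degrades p53, was higher by 1.10 and Perp by 1.96, and Cdkn1a, a cell cycle inhibitor, by 1.31 scaled to total reads only. The Perp call was lost without replicate 2 or 3 at 8 h or replicate 3 at 24 h under both scalings, and the Cdkn1a call without replicate 3 at 8 h (0.92). None of these 5 genes was called with own total reads as the scale (0.92, 0.75, 0.57, 0.94 and 0.76 in the order named). Total reads of 8 of the 21 members were higher at 24 h and of 1 lower, where 5.4% and 7.69% of 9848 genes tested in total reads were called.

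Among signalling and pluripotency genes, Nodal, the TGFβ ligand of the early embryo, had 6.46, 9.84 and 3.93 T>C CPM at 8 h, 44.4, 43.7 and 29.3 T>C CPM at 24 h and 12.5 ± 2.39 (SD, n = 3) at 0 h, so the 24 h libraries stood above both other times. Its log2 difference was 2.53 scaled to total reads (SE 0.45, edgeR adjusted p = 6.92e-05) and 1.98 scaled to T>C reads (SE 0.39, edgeR adjusted p = 1.08e-04). Genes of the Nodal, BMP and FGF feedback had 10 of 18 members higher scaled to total reads and 4 scaled to T>C reads, none lower, with a median of 0.64 scaled to T>C reads, where 16.1% and 5.71% of all tested genes were higher. Of 28 naive pluripotency factors, 9 were higher scaled to total reads, and 4 were higher and 1 lower scaled to T>C reads, where 5.71% and 4.81% of all tested genes were, with a median of 0.16. Nanog had 89.6, 58.1 and 22.7 T>C CPM at 8 h and 186, 223 and 193 T>C CPM at 24 h, near its 172 ± 18.9 (SD, n = 3) at 0 h, and a log2 difference of 1.82 scaled to total reads (SE 0.32, edgeR adjusted p = 5.82e-05) and 1.35 scaled to T>C reads (SE 0.17, edgeR adjusted p = 4.03e-09). Nr5a2, an orphan nuclear receptor, stood at 33.9 ± 14.2 and 143 ± 21.1 T>C CPM (SD, n = 3), above its 66.8 at 0 h, with a log2 difference of 1.55 scaled to T>C reads. Sox2 was higher by 1.16 scaled to total reads and by 0.62 scaled to T>C reads, under the limit of 1, and was not called without replicate 3 at 8 h (0.92). With own total reads as the scale, Nanog was called, and Nodal (0.92), Nr5a2 (0.94) and Sox2 (0.68) were not. Tet1, which oxidises 5-methylcytosine, was lower scaled to T>C reads (−1.05, edgeR adjusted p = 5.85e-07) and not called scaled to total reads (−0.52). Its call was lost without replicate 2 at 8 h (−0.96) or replicate 2 at 24 h (−0.94). Against its own total reads Tet1 was not called and stood at 0.44, a positive value but under the median of 0.60 of all genes on that scale.

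Of 104 ribosome biogenesis factors, 30 were higher and 0 lower scaled to total reads, and 9 were higher and 2 lower scaled to T>C reads, with a median of 0.35. Over all tested genes 16.1% and 0.934% were so scaled to total reads, and 5.71% and 4.81% scaled to T>C reads, so the latter count of higher factors is near that of all genes. Nifk had 15.7, 22.5 and 6.98 T>C CPM at 8 h and 88.0, 81.9 and 68.1 T>C CPM at 24 h, and Polr1c, a subunit of RNA polymerases I and III, 45.2, 31.9 and 12.7 and 87.2, 143 and 116. Neither gene overlapped between the times, and their log2 differences scaled to T>C reads were 1.87 and 1.46. Ncl, the nucleolar protein nucleolin, did not follow. Of 72 cytosolic ribosomal protein genes, 42 were higher scaled to total reads and 9 scaled to T>C reads, with a median of 0.63, and in 59 of them over 20% of reads mapped to more than 1 place. Among 33 chaperones, 18 were higher scaled to total reads and 7 scaled to T>C reads. Cct3, a subunit of the chaperonin that folds actin and tubulin, had 42.4, 28.1 and 18.3 T>C CPM at 8 h and 123, 128 and 114 T>C CPM at 24 h and a log2 difference of 2.03 scaled to total reads (SE 0.32, edgeR adjusted p = 1.10e-05) and 1.51 scaled to T>C reads (SE 0.20, edgeR adjusted p = 1.59e-08). Dnajb1 was higher by 1.31 and Chordc1 by 1.85 scaled to T>C reads, Chordc1 not without replicate 2 at 24 h (1.43). Nifk and Cct3 were also called against their own total reads, and Polr1c (0.99), Dnajb1 (0.81) and Chordc1 (1.22) were not. In the integrated stress response, 8 of 22 members were higher scaled to total reads but only Psat1, of serine synthesis, scaled to T>C reads, with 10.5, 18.7 and 6.11 T>C CPM at 8 h and 60.8, 61.5 and 83.6 T>C CPM at 24 h.

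**Figure D3:**
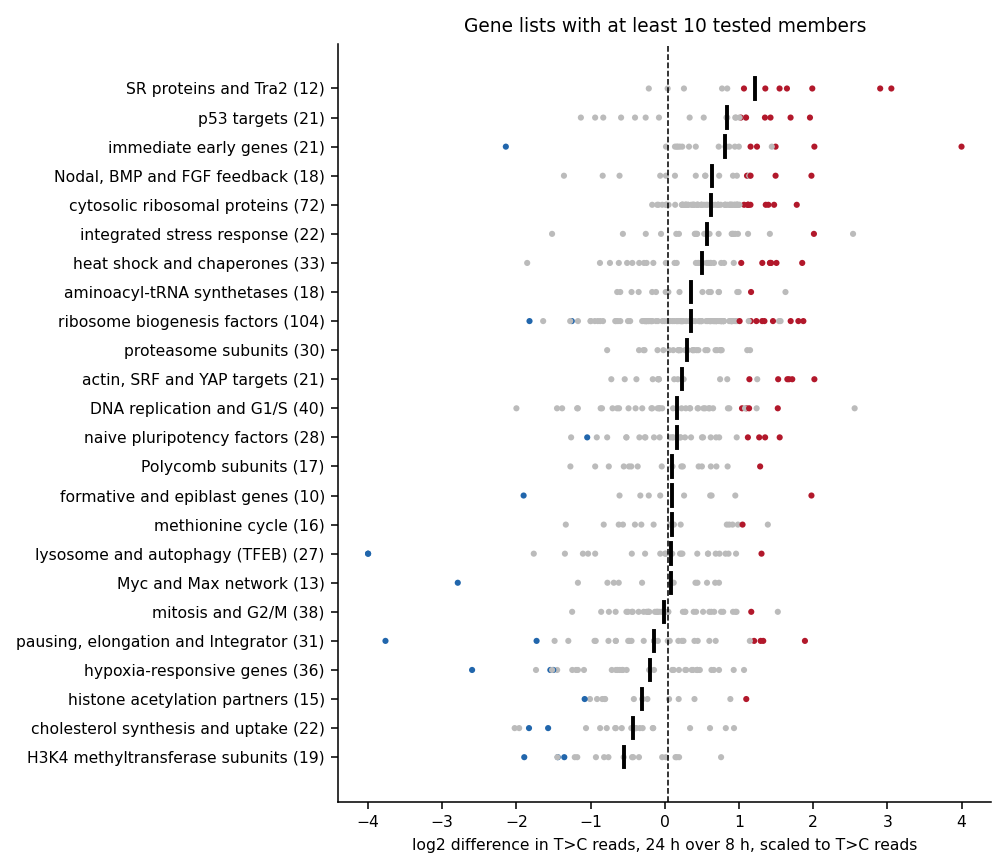
Gene lists with at least 10 tested members (number in parentheses). Each point is a gene at its log2 difference of 24 h over 8 h scaled to T>C reads, red if called higher, blue if called lower and grey if not called, with values beyond 4 drawn at 4. Black bars are list medians and the dashed line the median of all 6317 genes (0.05). List medians run from −0.55 (H3K4 methyltransferase subunits) to 1.21 (SR proteins and Tra2).

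Of the other leading genes, chosen as the 10 largest increases called without overlap under both scalings, Mgat4c, a glycosyltransferase gene, had 1.21, 0 and 0.436 T>C CPM at 8 h and 11.6, 25.8 and 10.9 T>C CPM at 24 h and a log2 difference of 4.69 scaled to total reads (SE 0.90, edgeR adjusted p = 2.15e-04) and 4.19 scaled to T>C reads (SE 0.86, edgeR adjusted p = 2.09e-04). Mgat4c averaged 6.33 T>C reads before auxin and 1.33 after 8 h, both under the entry limit of the tests, and 35.7 after 24 h. Entry through the 24 h reads favours a call. Wsb1, a substrate receptor of a ubiquitin ligase, had 16.2, 16.9 and 9.60 and 93.2, 113 and 101 T>C CPM, and its 24 h libraries also lay above the 25.1 ± 7.74 (SD, n = 3) at 0 h. The log2 difference of Wsb1 was 2.29 scaled to T>C reads (SE 0.27, edgeR adjusted p = 5.27e-10). Gm12355, Dcaf12l1, 3110001I22Rik and Pop7, a subunit of RNase P, differed by 3.08, 2.64, 2.40 and 2.25 on the same scale. Against own total reads Mgat4c, 3110001I22Rik and Wsb1 were not called (0.095, 0.57 and 0.89), and Gm12355, Dcaf12l1 and Pop7 were. Of all 361 genes higher under both scalings, in 348 the libraries of both times stood apart on either scale, where 30.2% and 18.3% of tested genes were higher without overlap scaled to total reads and to T>C reads. Total reads, which T>C reads are part of, were also called higher for 107 of the 361 and lower for 0, where 5.4% and 7.69% of all genes were. At 24 h, 29 of the 361 also stood above 0 h under both scalings, where 0.807% and 4.05% of tested genes did scaled to total reads and to T>C reads. At 8 h, 64 had been below 0 h under both, where 14.5% and 2.2% were.

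Genes low at 8 h against 0 h were sorted by what followed. Scaled to total reads, 915 genes were low at 8 h (14.5% of those tested), of which 438 regained (higher at 24 h than at 8 h, 47.9% of the 915), 69 stayed low (not called between 8 h and 24 h and still low against 0 h, 7.54% of the 915), 0 fell further (2 at an unadjusted p in edgeR, 0 with DESeq2) and 408 were unresolved (44.6%). As shares of all tested genes, the regained and stayed-low genes were 6.93% and 1.09%. Scaled to T>C reads, 139 were low (2.2%), of which 64 regained (1.01% of all tested genes), 22 stayed low (0.348%), 1 fell further (0.0158%) and 52 were unresolved. At 24 h against 0 h, 51 genes were higher (0.807%) and 174 lower (2.75%) scaled to total reads, and 256 higher (4.05%) and 314 lower (4.97%) scaled to T>C reads. The comparisons share the 8 h libraries, so a low value there favours both the call at 8 h and the regain. Without replicate 3 at 8 h, 472 genes were low and 194 regained, and without replicate 1 at 8 h, 1882 and 1129. The number that stayed low was 143 without replicate 1 at 8 h, and 29, 29 and 17 without replicates 1, 2 and 3 at 24 h. Of the genes regained scaled to total reads, 64 were regained and 344 not low at 8 h scaled to T>C reads.

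Among regained genes, the 5 with the most T>C reads at 0 h and at most 20% multimapping reads were Mat2a, Actb, Serbp1, G3bp2 and Nufip2. Mat2a, which makes the methyl donor S-adenosylmethionine, had 286, 163 and 133 T>C CPM at 8 h and 547, 607 and 601 T>C CPM at 24 h. All its 24 h libraries lay above the 8 h libraries and under the 0 h mean of 1028 ± 29.4 (SD, n = 3), a partial return. Its log2 difference of 24 h over 8 h was 1.59 scaled to total reads (SE 0.26, edgeR adjusted p = 2.75e-05) and 1.05 scaled to T>C reads (SE 0.11, edgeR adjusted p = 1.21e-11). Serbp1, an RNA-binding protein, returned to 573 ± 45.9 T>C CPM at 24 h (SD, n = 3) from 247 ± 86.6 at 8 h, against 580.1 ± 28.4 at 0 h. G3bp2, a stress granule protein, had 157 ± 79.1 T>C CPM at 8 h and 403 ± 43.0 at 24 h (SD, n = 3), against 451 ± 31.4 at 0 h, and Nufip2 171 ± 76.9 and 544 ± 26.9, against 378 ± 14.1. Scaled to total reads, the 24 h over 0 h difference was not called in Mat2a (−0.81), Serbp1 (−0.02), G3bp2 (−0.16) and Nufip2 (0.52). Mat2a (0.99) and Nufip2 (0.75) were not called between 8 h and 24 h against their own total reads, and the other 3 were. The Mat2a call scaled to T>C reads was lost without replicate 2 at 8 h (0.91) or replicate 3 at 24 h (0.99). The Serbp1 regain was not called without replicate 3 at 8 h (0.98).

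**Figure D4:**
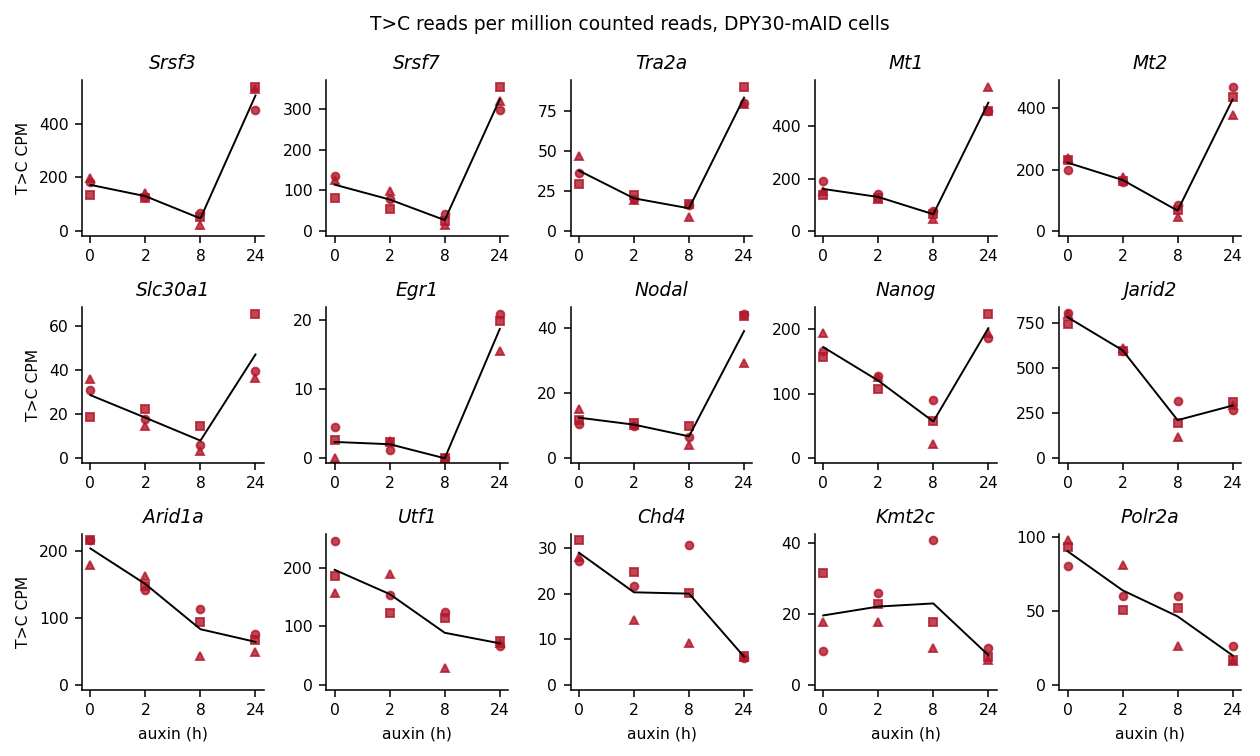
T>C CPM of 15 genes in DPY30–mAID cells against hours of auxin (linear y axes from 0, one per gene). Points are libraries with circle, square and triangle for replicates 1, 2 and 3, and lines join the means of 3. Srsf3, Mt1 and Nodal rise above 0 h at 24 h, Nanog returns near 0 h, Jarid2 and Arid1a stay low, and Chd4, Kmt2c and Polr2a are lowest at 24 h.

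The genes of the stayed-low class described here were taken for their T>C reads at 0 h or as members of a list. Jarid2, an accessory subunit of Polycomb complex PRC2, had 783 ± 34.96 T>C CPM (SD, n = 3) at 0 h, 317, 197 and 120.0 at 8 h and 268, 313 and 296 at 24 h. Its 8 h and 24 h libraries overlapped, and both lay under all 0 h libraries. The log2 difference of 24 h over 8 h was 0.47 scaled to total reads (SE 0.27, edgeR adjusted p = 0.23) and −0.04 scaled to T>C reads (SE 0.11, edgeR adjusted p = 0.856), and that of 24 h over 0 h was −1.42 (edgeR adjusted p = 0.00109). Arid1a, of the BAF remodelling complex, had 113, 93.7 and 43.2 T>C CPM at 8 h and 76.8, 67.0 and 50.1 T>C CPM at 24 h, against 204 ± 21.5 (SD, n = 3) at 0 h, and all its reads were 416 and 159.5 CPM. Ncl, nucleolin, had 258, 175 and 72.9 and 219.6, 191 and 177 T>C CPM, against 431 ± 29.1 (SD, n = 3) at 0 h. Klf5 and Utf1, factors of the naive and early pluripotent state, stood at 127 ± 12.9 and 71.3 ± 4.76 T>C CPM at 24 h (SD, n = 3), against 268 ± 22.4 and 196 ± 45.2 at 0 h. On the scale of own total reads, Jarid2 and Ncl were called higher at 24 h than at 8 h (1.13 and 1.36), where the median of all genes was 0.60. Of the 69 genes that stayed low scaled to total reads, 16 stayed low and 1 fell further scaled to T>C reads. That last gene was Fasn, fatty acid synthase, with 17.0, 15.9 and 0.873 T>C CPM at 8 h, 3.60, 3.97 and 5.01 T>C CPM at 24 h and 47.8 ± 6.88 (SD, n = 3) at 0 h. Its log2 difference was −1.41 scaled to total reads (SE 0.53, edgeR adjusted p = 0.0566) and −1.83 scaled to T>C reads (SE 0.44, edgeR adjusted p = 0.002), and without replicate 3 at 8 h the first passed the test (−1.96). Against its own total reads Fasn was not called and stood at 0.33, a positive value but under the median of 0.60 of all genes on that scale.

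Genes of H3K4 methyltransferase subunits had the lowest median of all lists with at least 10 tested members, −0.55 scaled to T>C reads and −0.04 scaled to total reads. Of 19 tested, 3 (Kmt2c, Kmt2d and Pagr1a) were lower scaled to T>C reads, where 4.81% of all tested genes were, 0 were higher, and scaled to total reads Kmt2c was lower and Kdm6a, a demethylase subunit of the same complexes, higher (1.28). Total reads of 7 of the 19 were lower at 24 h and of 0 higher, where 7.69% and 5.4% of all genes were. Kmt2c, which encodes the catalytic subunit MLL3, had 40.8, 17.8 and 10.5 T>C CPM at 8 h and 10.4, 7.94 and 7.10 T>C CPM at 24 h, with 19.6 ± 11.2 (SD, n = 3) at 0 h, and a log2 difference of −1.44 scaled to total reads (SE 0.47, edgeR adjusted p = 0.0273) and −1.89 scaled to T>C reads (SE 0.39, edgeR adjusted p = 2.43e-04). Its libraries did not overlap, but those of 8 h were widely spread, and without replicate 1 at 8 h the difference scaled to total reads was −0.72 and was not called. That call was also lost without replicate 2 or 3 at 24 h (−1.39 and −1.32), the Kdm6a call without replicate 2 at 8 h (1.34) or replicate 3 at 24 h (1.12), and the Pagr1a call without each of 4 of the 6 libraries (−1.37 to −1.15). Kmt2c (−0.18), Pagr1a (−0.13), Kdm6a (0.93) and Kmt2d (0.89, the opposite direction) were not called against their own total reads. Kmt2d, which encodes MLL4, had 15.3, 7.96 and 8.73 and 5.20, 5.95 and 6.27 T>C CPM and a log2 difference of −1.44 scaled to T>C reads (edgeR adjusted p = 0.0193), not called without replicate 1 or 3 at 8 h or replicate 1 at 24 h. Setd1b, a catalytic subunit of the SET1 complexes, had 76.3, 64.2 and 27.9 and 52.8, 60.5 and 62.7 T>C CPM, which overlap, against 136 ± 2.97 (SD, n = 3) at 0 h. Cholesterol and lipid synthesis genes had a median of −0.43 scaled to T>C reads, with 2 of 22 lower (Fasn and Srebf2) and 0 higher, and 3 (Hmgcs1, Insig1 and Msmo1) higher scaled to total reads, where 16.1% of all tested genes were, Insig1 and Msmo1 not on the scale of own total reads (0.46 and 0.81). Without replicate 3 at 8 h, Hmgcs1 (0.70) and Msmo1 (0.86) were not called.

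Of the genes lower at 24 h under both scalings, the 10 leading ones were the largest differences scaled to total reads within set limits. These limits were no overlap, an average of 30 or more T>C reads in the higher group and at most 20% multimapping reads. Chd4, the ATPase of the NuRD remodelling complex, had 30.7, 20.1 and 9.16 T>C CPM at 8 h and 6.0, 6.45 and 6.27 T>C CPM at 24 h, with 28.9 ± 2.42 (SD, n = 3) at 0 h. The 24 h libraries were close together and lay under all others. Its log2 difference was −1.68 scaled to total reads (SE 0.46, edgeR adjusted p = 0.00725) and −2.16 scaled to T>C reads (SE 0.38, edgeR adjusted p = 1.73e-05), and it was the only one of the 10 leading decreases called under both scalings without each library in turn. Against its own total reads Chd4 was not called (−0.21). Of the elongation list, Polr2a, the largest subunit of RNA polymerase II, had 60.6, 52.5 and 26.6 T>C CPM at 8 h and 26.8, 17.4 and 16.3 T>C CPM at 24 h, against 90.6 ± 8.90 (SD, n = 3) at 0 h, and a log2 difference of −1.20 scaled to total reads (SE 0.34, edgeR adjusted p = 0.0105) and −1.73 scaled to T>C reads (SE 0.24, edgeR adjusted p = 6.54e-08). All reads of Polr2a were 481 CPM at 8 h and 151 CPM at 24 h, and set against these reads the difference was 0.45. The Polr2a call scaled to total reads was lost without replicate 1 or 2 at 8 h or replicate 2 or 3 at 24 h (−0.95 to −1.11). Bbx, an HMG-box protein, had 37.6, 17.8 and 8.29 and 5.20, 7.44 and 5.85 T>C CPM and a log2 difference of −1.79 scaled to total reads (edgeR adjusted p = 0.00457), lost without replicate 1 at 8 h (−1.07) and 0.052 set against its own total reads. Of the aryl hydrocarbon receptor list, Arnt, the partner of HIF and of the aryl hydrocarbon receptor, had 16.6, 12.2 and 6.11 and 4.00, 1.98 and 0.418 T>C CPM and a log2 difference of −2.41 scaled to total reads (SE 0.66, edgeR adjusted p = 0.00734) and −2.92 scaled to T>C reads (SE 0.59, edgeR adjusted p = 1.87e-04), and it was also called against its own total reads (−2.22), but not without replicate 3 at 24 h scaled to total reads (−1.92). Of the 5 tested members of that list, 1 (Tiparp) was higher and 1 lower scaled to total reads, where 16.1% and 0.934% of all tested genes were. Scaled to T>C reads, 0 were higher and 1 lower, where 5.71% and 4.81% were. Tiparp was not called against its own total reads (0.86). Beside Chd4, Bbx, Kmt2c and Ier3, the 10 leading decreases were Tiam1, Nfic, Sh3bp1, Adgrl1, Fam117b and 1700037H04Rik, with log2 differences scaled to total reads of −1.92, −1.87, −1.47, −1.42, −1.61 and −1.93. Each of these 6 lost that call without at least 2 of the 6 libraries taken out singly. None was called against own total reads (−0.63, 0.17, −0.31, 0.31, −0.34 and −1.54 in the same order). Of the 59 genes, 38 were also lower in total reads and 0 higher, where 7.69% and 5.4% of all genes were. At 24 h, 31 of them lay below 0 h under both scalings, where 2.75% and 4.97% of tested genes did, and 50 had no overlap on either scale, where 3.18% and 11.9% of tested genes were lower without overlap scaled to total reads and to T>C reads.

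Of 31 elongation and Integrator genes tested, 4 were higher and 1 lower scaled to total reads, where 16.1% and 0.934% of all tested genes were. On the scale of T>C reads, 4 were higher and 2 (Polr2a and Nelfe) lower, where 5.71% and 4.81% were. Ccnt1, the cyclin of the elongation factor P-TEFb, had 76.3, 57.6 and 40.1 T>C CPM at 8 h and 206, 199 and 186 T>C CPM at 24 h, with no overlap, and a log2 difference of 1.76 scaled to total reads (SE 0.29, edgeR adjusted p = 2.89e-05) and 1.20 scaled to T>C reads (SE 0.17, edgeR adjusted p = 7.29e-08). Against its own total reads Ccnt1 was not called (0.85). Hexim1, the inhibitor of P-TEFb, had 29.1, 16.9 and 21.4 and 26.0, 28.8 and 37.6 T>C CPM, which overlap, against 70.2 ± 6.93 (SD, n = 3) at 0 h, and stayed low. Nelfe was not called scaled to T>C reads without replicate 3 at 8 h or replicate 2 or 3 at 24 h. Ints12, an Integrator subunit, had 5.65, 0.937 and 0.436 and 16.0, 9.92 and 10.0 T>C CPM, and its call was lost without replicate 2 at 8 h or replicate 1 at 24 h under both scalings.

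In the RNA pool, which T>C reads are part of, 532 genes were higher at 24 h than at 8 h (5.4% of 9848 tested) and 757 lower (7.69%), around a median of −0.01. The median log2 difference in total reads was 0.76 in the 361 genes higher under both scalings, −1.31 in the 59 lower and −0.02 over all genes tested in T>C reads.

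The return of labelled reads at 24 h was set beside the other lines. In RBBP5–FKBP cells the labelled share averaged 6.94% at 8 h (SD 0.410, n = 3) and 5.13% at 24 h (SD 0.247, n = 3), and in dKO cells it was 4.34% ± 0.112 and 3.06% ± 0.108 (SD, n = 2). At 0 h the share averaged 15.8% in DPY30–mAID, 9.56% in RBBP5–FKBP and 4.98% in dKO cells, so a point is a larger part of it in the other lines. The change in DPY30–mAID cells exceeded that in RBBP5–FKBP cells by 7.66 percentage points and that in dKO cells by 7.13 points. All 24 h libraries lay above the 8 h libraries in DPY30–mAID cells and under them in both other lines, and the difference itself was not tested. Scaled to total reads, the 24 h over 8 h difference was more positive in DPY30–mAID than in RBBP5–FKBP cells for 997 of 6404 genes (15.6%) and more negative for 11 (0.172%), with medians of 0.56 and −0.45 over all genes. Scaled to T>C reads, 165 were more positive (2.58%) and 40 more negative (0.625%). Against dKO cells, 1588 of 6901 genes were more positive (23%) and 7 more negative (0.101%) scaled to total reads, and 192 (2.78%) and 32 (0.464%) scaled to T>C reads. Within RBBP5–FKBP cells, Cox7c was the 1 gene higher and Ccnd2 the 1 lower at 24 h scaled to T>C reads, and in dKO cells Klf6, Mt1 and Phlda1 were higher and Ccnd3, Ccne1 and Tcf15 lower, all named after their values were seen. On the scale of total reads, 1 gene was higher and 30 were lower in RBBP5–FKBP cells in edgeR, or 47 and 635 at an unadjusted p. In dKO cells 0 were higher and 3 lower in edgeR, or 5 and 699 at an unadjusted p. The lines differ in library depth (6582625 to 6953918 reads in dKO cells at 8 h and 24 h), labelled share and preparation, so line and library set cannot be told apart. Reads covered 11.2 T each in the dKO libraries at both times, and on average 18.5 T at 8 h and 18.8 T at 24 h in RBBP5–FKBP cells. Per 1000 covered T, the mean change from 8 h to 24 h was 4.94 conversions in DPY30–mAID, −1.23 in RBBP5–FKBP and −1.46 in dKO cells.

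Srsf7 differed by 2.74 between DPY30–mAID and RBBP5–FKBP cells on the log2 scale set by T>C reads (SE 0.33, edgeR adjusted p = 1.16e-09), where its own 24 h over 8 h difference in RBBP5–FKBP cells was 0.31. Against dKO cells, Srsf7 differed by 3.13 (SE 0.24, edgeR adjusted p = 5.15e-17). Srsf3 differed by 3.08 and 2.41 from RBBP5–FKBP and dKO cells, Tra2a by 2.68 and 1.73, and Mt2 by 1.86 and 1.33 (edgeR adjusted p at most 3.54e-04). Mt1 differed from RBBP5–FKBP cells by 2.08, but from dKO cells by 0.97, under the limit of 1. In dKO cells Mt1 was itself higher at 24 h, by 1.46 (edgeR adjusted p = 1.84e-05). Nodal differed from RBBP5–FKBP cells by 3.10 (edgeR adjusted p = 0.00216) and Actb by 1.85 (edgeR adjusted p = 4.96e-11). Of the decreases, Chd4 differed by −2.41 from RBBP5–FKBP and by −1.99 from dKO cells scaled to T>C reads (edgeR adjusted p = 0.0182 and 0.00851), and was not called against either scaled to total reads. Of 33 leading, SR-protein and metallothionein-related genes, 12 differed from RBBP5–FKBP and 9 from dKO cells under both scalings, where 2.58% and 0.172% of all tested genes were more positive and more negative against RBBP5–FKBP and 2.78% and 0.101% against dKO cells, but these genes were chosen for their change in the same DPY30–mAID libraries.

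**Figure D5:**
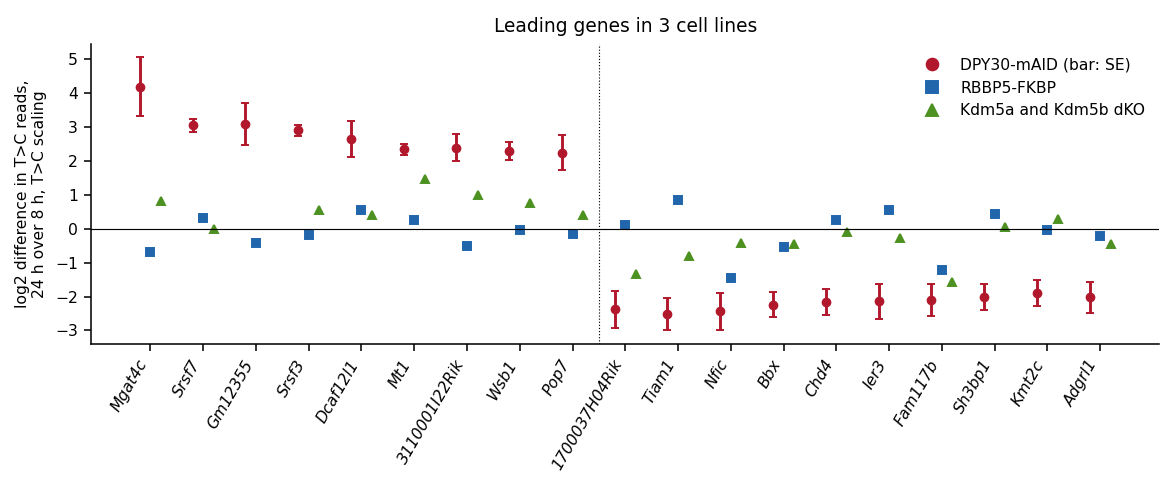
Log2 difference in T>C reads of 24 h over 8 h, scaled to T>C reads, for the leading genes in DPY30–mAID (red, bars are the SE of the fit), RBBP5–FKBP (blue) and dKO cells (green), with increases left and decreases right of the dotted line. Egr1 and the dKO value of Gm12355 are left out because a group had no T>C reads. The increases in DPY30–mAID cells lie between 2.25 and 4.19, above both other lines.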

How the data were processed

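SLAM-seq libraries of mES cells were analysed from the counts the authors deposited for 46420 annotated 3′ UTR intervals. The authors made 3′-end libraries without molecular identifiers, trimmed the reads and aligned them to mm10 with SlamDunk (0.3.4 per the file headers) over GENCODE vM14 3′ UTRs, allowing reads that mapped to more than 1 place. Each interval has deposited counts of all reads and of T>C reads. The paper's methods keep reads with at least 2 conversions, but the files average fewer than 2 per T>C read, so single conversions are included. CPM deposited by the authors, where present, were not used.

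Intervals were summed per gene (20177 genes, all matched to GENCODE vM21 symbols of the same build). A gene entered the tests where its T>C reads (or, for the pool, total reads) averaged 10 or more at any of the time points. Tests used edgeR 4.0.16 in R 4.3.3, by the quasi-likelihood test with Benjamini-Hochberg adjustment, in 1 fit of the 12 DPY30–mAID libraries. Library sizes were either the total reads or the T>C reads, each multiplied by TMM factors computed on the same counts. The difference between lines was an interaction term in 1 fit of both lines. DESeq2 1.42.0 and other settings were alternatives. The fits were also run on simulated counts with known changes and a fixed spread. That spread was not taken from these libraries, so the simulation does not measure how the uneven 8 h libraries affect the calls. Shares were compared with exact permutation tests. Python 3.11.15 was used for the remaining steps.

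Named genes were, in each direction, the 10 largest differences scaled to total reads among genes called under both scalings, without overlap, whose T>C reads averaged 30 or more in the higher group and at most 20% reads mapping to more than 1 place. To these were added the 5 genes of each class with the most T>C reads at 0 h and at most 20% multimapping reads, the called and the 4 most labelled members of each gene list, and Dpy30. Members and lists were chosen with earlier results of these data known, and the SR-protein and metallothionein lists, the GC offset and the scale of a gene's own total reads after values were seen. Replicates are separate libraries per the labels, and p-values measure the spread between them. Floors and tests cover counting error and library spread only.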

Additional observations from a re-analysis of the deposited data

Results flagged for a closer look

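In the labelled share, all 24 h libraries lay above the 8 h libraries in DPY30–mAID cells and under them in RBBP5–FKBP and dKO cells, and the difference between lines was not tested. The change from 8 h to 24 h was apart by 7.66 percentage points between DPY30–mAID and RBBP5–FKBP cells and by 7.13 points between DPY30–mAID and dKO cells. The 8 h libraries of DPY30–mAID cells, which enter both values, ranged from 5.51% to 13.0%. Mean shares at 0 h were 15.8% in DPY30–mAID, 9.56% in RBBP5–FKBP and 4.98% in dKO cells.

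Single genes among the leading, SR-protein and metallothionein-related genes also had a 24 h over 8 h difference that was not the same in the lines, under both scalings, in a fit with a term for the difference between lines (edgeR's quasi-likelihood test). The values that follow are that difference on the log2 scale set by T>C reads, DPY30–mAID minus the other line. Against RBBP5–FKBP cells it was 4.85 in Mgat4c, 2.74 in Srsf7, 3.08 in Srsf3, 1.58 in Srsf2, 2.68 in Tra2a and 1.51 in Tra2b. It was 2.08 in Mt1, 1.86 in Mt2 and 2.44 in Slc30a1, and 2.91 in 3110001I22Rik and 2.31 in Wsb1. Tiam1, a Rac exchange factor, was the 1 gene with a negative value, −3.36. Before auxin and after 8 h, Mgat4c had too few T>C reads in DPY30–mAID cells for the entry filter (means of 6.33 and 1.33). After 24 h Mgat4c had enough (35.7), and entry through that group would favour a call.

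Against dKO cells it was 3.13 in Srsf7, 2.41 in Srsf3, 1.40 in Srsf2, 1.73 in Tra2a and 1.58 in Tra2b. It was 1.33 in Mt2, 2.27 in Slc30a1, 2.23 in Dcaf12l1 and 1.62 in Wsb1. Srsf2 and Tra2b have 43.3% and 50.3% of reads mapping to more than 1 place. These genes were chosen for their change in the same DPY30–mAID libraries, and line and library set cannot be told apart.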

How the results depend on the processing

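Leaving out each 8 h or 24 h library in turn moved the genes scaled to total reads from 1017 higher and 59 lower to between 619 and 1719 higher and between 32 and 153 lower, and gave scaled to T>C reads 278 to 419 higher and 205 to 274 lower. Total reads gave 462 to 550 higher and 646 to 831 lower in the same way. Genes low at 8 h ranged from 472 to 1882, regained from 194 to 1129, stayed low from 17 to 143 and fell further from 0 to 3, and the difference in labelled share from 3.88 to 7.64 points. Differences from RBBP5–FKBP cells ranged from 678 to 1494 genes more positive and 6 to 12 more negative, and from dKO cells from 1324 to 2511 and 6 to 16.

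A mean of at least 50 reads, with fewer genes tested, gave 14 genes lower scaled to total reads (9 of them among the 59), 96 scaled to T>C reads (86 among the 304) and 500 in total reads. A fit of the 8 h and 24 h libraries alone, with fewer samples and 5570 genes tested, gave 520 higher and 15 lower scaled to total reads and 191 lower scaled to T>C reads. An unadjusted p gave 171 lower scaled to total reads, and 542 higher and 598 lower scaled to T>C reads. Without TMM factors the T>C scaling gave 167 higher and 538 lower. With each gene's own total reads as the scale, 555 were higher and 14 lower, among them 336 of the 1017 and 7 of the 59. Of 60 single genes followed as increases 33 were no longer called, and of 13 decreases 12 were not. Among these 12, 6 changed sign, to 0.20 in Ier3, 0.052 in Bbx, 0.45 in Polr2a, 0.17 in Nfic, 0.31 in Adgrl1 and 0.00028 in Dnmt3b. All 6 values lay under the median of 0.60 of all genes on that scale, and the cause was not tested. Scaled to T>C reads, 139 genes were low at 8 h, 64 regained, 22 stayed low and 1 fell further, and the difference between lines was more positive in 165 and more negative in 40 genes against RBBP5–FKBP, and in 192 and 32 against dKO cells. DESeq2 gave 20 genes more negative against RBBP5–FKBP cells.

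Libraries of 8 h and 24 h share replicate numbers, and their deviations did not correlate (−0.026 to 0.016 scaled to total reads). Counting error enters each deviation, so this cannot exclude pairing, and the labels do not say whether equal numbers were handled together. With the replicate number as a block, 1034 genes were higher and 55 lower scaled to total reads, 352 and 274 scaled to T>C reads, and 521 and 751 in total reads, and 964 were low at 8 h, of which 462 regained and 68 stayed low. The block gave 974 and 8 genes against RBBP5–FKBP and 1667 and 7 against dKO cells.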

Other observations

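Some gene groups moved little or were thinly measured. No gene of the 2-cell-like and germline list had enough T>C reads to be tested. Of 30 proteasome subunits tested, 6 were higher at 24 h scaled to total reads (16.1% of all tested genes) and 0 scaled to T>C reads (5.71%), with a median of 0.30 on the latter scale. Mitosis and G2/M genes had, near the share of all genes, 7 of 38 higher scaled to total reads and 1 (Ccnb1) scaled to T>C reads, with a median of −0.02. Hypoxia-responsive genes had 2 of 36 higher scaled to total reads and 3 (Hk1, Egln1 and Slc16a3) lower scaled to T>C reads, where 4.81% of all tested genes were, with a median of −0.20.

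Scaled to total reads, 31 genes were lower at 24 h than at both other times without having been low at 8 h, and 138 were so scaled to T>C reads. Scaled to T>C reads, 57 genes were higher at 8 h than at 0 h, of which 13 were lower again at 24 h and 19 still stood above 0 h, where 4.81% and 4.05% of all tested genes were. These comparisons share the 8 h or the 0 h libraries, which favours both outcomes. Among tested genes, 3 (Egr1, Gm26992 and Zfp672) had 0 T>C reads in all 8 h libraries and were higher under both scalings, but Egr1 and Zfp672 entered the tests only through their 24 h reads, which favours a call. Another 5 (Furin, Man2b1, Ripor1, Shisa8 and Zfyve9) had 0 in all 24 h libraries, and 4 of these were lower under both.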
